A study of Mus musculus with 8 samples.

Results

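The genes described here are 38 mouse genes of DNA replication and mitosis, taken by name from a fixed list, out of 21631 protein-coding genes on the 20 chromosomes used. All 38 were found in the mm10 gene table, on 16 chromosomes. They comprise 17 replication genes and 21 genes of mitosis, counted with the transcription factors Foxm1 and Mybl2. The study's title states that the retinoid X receptor (RXR) keeps hematopoietic stem cells (HSCs) quiescent and fit. The listed genes encode machinery that a cell uses to copy its DNA and divide. The comparison asked how much of each of 3 histone marks lay at these genes in RXR-deleted and control HSCs.

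CUT&RUN, in which an antibody tethers a nuclease that releases the DNA around a histone mark, was run for H3K4me1, H3K4me3 and H3K27ac on HSCs sorted as Lin-cKit+Sca1+CD48-CD150+ from the bone marrow of C57BL/6 mice about 10 months old. RXRKO cells came from VaviCre+Rxrabfl/fl mice and WT cells from Rxrabfl/fl mice. The Vav promoter drives the Cre recombinase in blood cells, stem cells included. The labels disagree on the WT animals, because the genotype field of those samples names VavCre+ while the design text gives Cre to RXRKO alone. Each assay used 7500 HSCs from a pool of 4 or 5 mice. H3K4me1 had 2 libraries of RXRKO and 2 of WT, whereas H3K4me3 and H3K27ac had 1 library of each genotype and so allow no test. The labels do not say whether the replicate libraries came from separate pools, so the p-values measure only the spread between these libraries.

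Replication is prepared in G1, when the origin recognition complex, Cdc6 and Cdt1 load the Mcm2-7 helicase onto DNA. It starts in S phase with Cdc45, the GINS complex, the polymerases and the clamp Pcna. Mitosis is then driven by cyclin-bound Cdk1 and by the Polo and Aurora kinases, and held back by the spindle checkpoint until chromosomes are attached. In quiescent cells both sets are held down by E2F, RB family and DREAM complexes at their promoters. H3K4me3 marks the starts of genes that are active or poised, H3K27ac marks active promoters and enhancers, and H3K4me1 marks the flanks of promoters and enhancers.

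The deposited data were peak lists, with no read depths. The H3K4me1 lists held 147698 and 165128 peaks in RXRKO, against 149377 and 159713 in WT, and covered 109.8 and 133.3 Mb in RXRKO, against 112.5 and 117.8 Mb in WT. The H3K4me3 lists held 58136 peaks in RXRKO and 47835 in WT. The H3K27ac lists held 64849 peaks in RXRKO and 74287 in WT. Of 12 HSC marker genes, all 12 had H3K4me3 at the promoter in both genotypes. Of 13 markers of cells outside the sort gate, 6 had it in RXRKO and 3 in WT, and of 6 genes silent in blood, 2 had it in RXRKO and 1 in WT. H3K27ac was called at 8 HSC markers in RXRKO and 9 in WT. It was called at 5 markers from outside the gate in each genotype, and at 1 silent gene in RXRKO and 2 in WT. In pooled cells, fewer cells with a mark and less of the mark per cell cannot be told apart.

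The promoters of the members are shown first, because replication and mitosis genes differ in their letters. RefSeq promoter sequences (GRCm38.p6, from 250 bases before to 50 bases after the gene start) were matched by symbol for 29 of the 38 genes. Sets of letters known from cell cycle promoters were searched on both strands. The E2F site was read as TTTCCCGC, TTTGGCGC, TTTCGCGC, TTCCCGCC or TTTGGCGG, some of which can overlap each other. The cell cycle homology region, to which DREAM and the MuvB core bind, was read as TTTGAA. The NF-Y box was read as CCAAT.

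E2F letters were more frequent in the replication promoters searched, and the cell cycle homology region in the mitosis promoters, though neither was in every promoter of its class. With the first entry of the table taken for each gene, an E2F site was found in 8 of 13 replication promoters and 2 of 16 mitosis promoters, against 5.23% of 17274 promoters in the table and 7.17% of the 11291 promoters with H3K4me3 in both genotypes. Mcm7 alone among the members had a further entry, which held 0 E2F matches, against 2 in its first. The cell cycle homology region was found in 2 of 13 replication promoters and 11 of 16 mitosis promoters, against 15.99% of all promoters and 11.4% of those with H3K4me3. CCAAT was found in 10 of 13 and 14 of 16, against 39.4% and 38.4%. The median GC content was 57.7% for the members, 56.3% for all promoters and 61% for those with H3K4me3. A match is a description of letters, not a bound site.

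Of the replication promoters, 3 are printed because they hold the E2F letters and belong to genes that recur in the results. Mcm6 and Mcm3 encode subunits of the replicative helicase, and Orc1 the largest subunit of the origin recognition complex. They lie at chr1:128359656-128359955 (Mcm6, minus strand), chr1:20820263-20820562 (Mcm3, minus strand) and chr4:108579204-108579503 (Orc1, plus strand). Capitals mark the E2F, TTTGAA and CCAAT letters on either strand.
Mcm6: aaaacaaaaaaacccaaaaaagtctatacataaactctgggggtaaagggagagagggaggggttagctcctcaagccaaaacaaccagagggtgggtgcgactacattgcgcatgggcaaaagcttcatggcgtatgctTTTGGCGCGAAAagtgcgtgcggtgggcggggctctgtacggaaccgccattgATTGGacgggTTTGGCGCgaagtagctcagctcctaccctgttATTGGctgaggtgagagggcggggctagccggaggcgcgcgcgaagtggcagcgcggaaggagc
Mcm3: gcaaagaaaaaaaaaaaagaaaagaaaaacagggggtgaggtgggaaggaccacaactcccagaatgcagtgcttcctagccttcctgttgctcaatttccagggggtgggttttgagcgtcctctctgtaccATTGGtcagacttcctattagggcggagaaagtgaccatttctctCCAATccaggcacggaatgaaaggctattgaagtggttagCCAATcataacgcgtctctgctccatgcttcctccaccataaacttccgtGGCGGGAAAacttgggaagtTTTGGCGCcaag
Orc1: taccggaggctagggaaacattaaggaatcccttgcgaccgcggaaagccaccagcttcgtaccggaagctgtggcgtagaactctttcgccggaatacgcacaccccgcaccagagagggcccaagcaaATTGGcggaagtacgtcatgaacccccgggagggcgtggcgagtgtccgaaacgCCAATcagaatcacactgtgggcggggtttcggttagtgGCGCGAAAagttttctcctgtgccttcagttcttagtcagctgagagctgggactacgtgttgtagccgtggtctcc

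The Mcm6 promoter held 3 E2F matches, 2 of them overlapping, between 110 and 47 bases before the start. In Mcm3 the 3 matches lay after the start, at 18, 19 and 38 bases, beyond 3 CCAAT boxes. None of the 3 promoters held TTTGAA.

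Of the mitosis promoters, 3 are printed as examples with the homology region. Cdk1 encodes the kinase that starts mitosis, Top2a the topoisomerase that untangles chromosomes, and Ccnb2 the cyclin B2 partner of Cdk1. They lie at chr10:69352863-69353162 (Cdk1), chr11:99024140-99024439 (Top2a) and chr9:70421505-70421804 (Ccnb2), all on the minus strand.
Cdk1: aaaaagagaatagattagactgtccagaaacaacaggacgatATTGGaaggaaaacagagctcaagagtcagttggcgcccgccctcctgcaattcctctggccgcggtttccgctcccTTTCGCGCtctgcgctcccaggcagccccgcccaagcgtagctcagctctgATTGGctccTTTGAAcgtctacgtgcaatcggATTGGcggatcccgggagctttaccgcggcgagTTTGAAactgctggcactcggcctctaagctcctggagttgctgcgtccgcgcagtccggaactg
Top2a: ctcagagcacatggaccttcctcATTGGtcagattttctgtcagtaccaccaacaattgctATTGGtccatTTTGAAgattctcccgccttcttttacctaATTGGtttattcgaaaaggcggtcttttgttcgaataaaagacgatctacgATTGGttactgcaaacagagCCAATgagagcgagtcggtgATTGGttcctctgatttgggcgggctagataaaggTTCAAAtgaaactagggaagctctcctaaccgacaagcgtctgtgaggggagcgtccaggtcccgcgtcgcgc
Ccnb2: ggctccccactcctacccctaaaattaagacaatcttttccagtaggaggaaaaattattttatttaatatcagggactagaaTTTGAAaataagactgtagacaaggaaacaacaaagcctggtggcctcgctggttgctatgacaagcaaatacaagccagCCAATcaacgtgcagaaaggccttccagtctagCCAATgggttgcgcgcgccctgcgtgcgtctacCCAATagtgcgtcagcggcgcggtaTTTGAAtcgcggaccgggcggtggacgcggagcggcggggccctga

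Cdk1 held both classes, with an E2F match 131 bases before the start and TTTGAA 71 and 15 bases before it. Top2a held 6 CCAAT boxes, the most among the members whose promoters were searched. The 3 CCAAT boxes of Ccnb2 stood 33 bases apart, starting 87, 54 and 21 bases before the start.

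The promoters of Bub1 and Ttk, both spindle checkpoint kinases, are printed because these genes stand at the top and the bottom of the H3K4me1 differences. They lie at chr2:127831810-127832109 (Bub1, minus strand) and chr9:83834439-83834738 (Ttk, plus strand).
Bub1: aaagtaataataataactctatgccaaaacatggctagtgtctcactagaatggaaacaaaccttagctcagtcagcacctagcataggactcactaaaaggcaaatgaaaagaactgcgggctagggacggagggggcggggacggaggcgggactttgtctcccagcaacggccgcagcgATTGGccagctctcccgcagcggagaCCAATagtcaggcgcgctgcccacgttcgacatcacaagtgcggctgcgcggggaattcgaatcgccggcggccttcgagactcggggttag
Ttk: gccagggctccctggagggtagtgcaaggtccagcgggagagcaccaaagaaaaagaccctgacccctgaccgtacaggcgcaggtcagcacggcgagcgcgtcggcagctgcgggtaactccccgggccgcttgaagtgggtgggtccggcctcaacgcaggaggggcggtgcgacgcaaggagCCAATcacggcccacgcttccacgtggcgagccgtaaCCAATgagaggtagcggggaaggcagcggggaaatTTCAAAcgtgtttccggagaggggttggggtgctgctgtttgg

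Both held 2 CCAAT boxes. Ttk also held TTTGAA, 7 bases after the start, and Bub1 neither TTTGAA nor E2F letters. RXR binds DNA as a dimer on direct repeats of AGGTCA, and such a repeat with 1 to 5 bases between its parts was found in 0 of the 29 member promoters and in 0.0637% of all promoters. The E-box CACGTG, the site of MYC and MAX, was found in 2 of 29, in Ttk and Tyms, against 7.995% of all promoters.

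**Figure D1:**
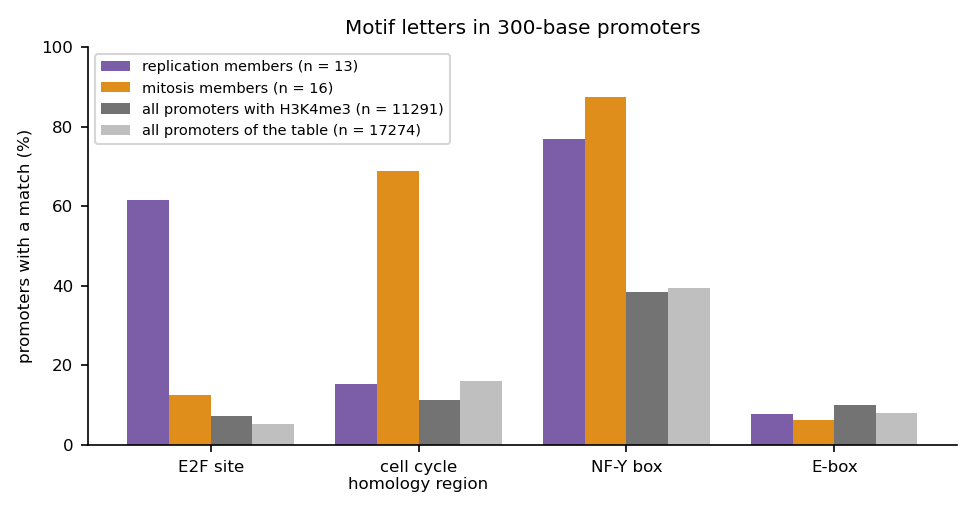
Share of promoters, in percent, with a match to each set of motif letters on either strand, for replication members, mitosis members, all promoters with H3K4me3 in both genotypes and all promoters of the table (bars, counts in the legend). The E2F site stands out in replication members at 8 of 13 and the cell cycle homology region in mitosis members at 11 of 16, while the NF-Y box is frequent in both.

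H3K4me3 was present at the start of essentially every member in both genotypes. A promoter was called when a peak touched the 1 kb on either side of a gene end. On that rule 37 of the 38 members were called in both genotypes (65.6% of all genes), 0 in RXRKO only (1.46% of all genes) and 0 in WT only (0.398% of all genes). The exception was Orc1, whose gene model begins at chr4:108575705, upstream of the start in the promoter table. At that start Orc1 had a peak of 1391 bp and fold enrichment 11.2 in RXRKO, against 1470 bp and 10.3 in WT, and with it all 29 members that have a start in the promoter table were called there in both genotypes. The other 9 were called at the gene end with more H3K4me3, which the mark itself chose. Fold enrichments are the authors' peak caller's values and serve here only to describe peaks within a list. Over the members they ranged from 4.82 to 14.9 in RXRKO and from 4.60 to 13.3 in WT, with Tpx2, a spindle assembly factor, highest in RXRKO.

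The H3K4me3 domains of the members were slightly shorter in RXRKO than in WT, whereas those of most genes were slightly longer. Length was the number of bases covered within 2 kb of the gene end, and 37 members could be measured. Of these, 26 were shorter and 11 longer in RXRKO, against 38.2% of 15318 genes shorter. The median length was 1720 bp in RXRKO and 1737 bp in WT for the members, and 1587 bp in RXRKO and 1558 bp in WT for all genes. The median log2 ratio of RXRKO to WT, with 200 bp added to each length, was -0.05 for the members and 0.02 for all genes. With 1 library of each genotype this difference has no replicate check. No member passed 1.5-fold in either direction (0 longer, against 3.57% of all genes, and 0 shorter, against 1.01%).

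Over the 38 members the shortening lay on the side of the gene body. Downstream of the start, within 2 kb, 27 of 38 members had less H3K4me3 in RXRKO and 10 had more, with a median of 947 bp in RXRKO and 1032 bp in WT. Of the 11291 genes with a start in the promoter table and H3K4me3 in both genotypes, 38.2% had less downstream in RXRKO and 51.8% had more. Upstream of the start, 15 members had less and 21 had more, against 35.7% and 54.6% of those genes. By class, 11 of 17 replication members and 16 of 21 mitosis members were shorter downstream. Upstream the classes were unlike, with 4 of the replication members shorter and 12 longer, and 11 of the mitosis members shorter and 9 longer. Among genes of similar length, with 1500 to 2000 bp of H3K4me3, 41.4% were shorter downstream in RXRKO. The RXRKO list held more H3K4me3 peaks than the WT list and more markers from outside the gate, as given above, and their part in this difference was not tested.

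**Figure D2:**
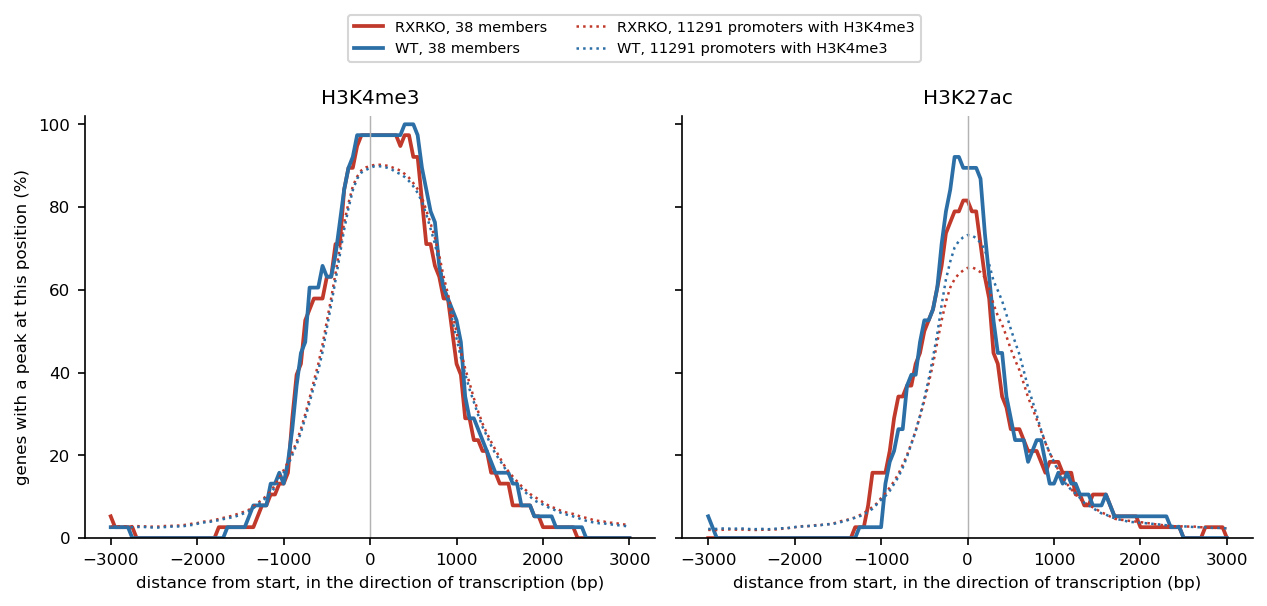
Share of genes with a peak at each distance from the start, in percent, for H3K4me3 (left) and H3K27ac (right), in RXRKO and WT, over the 38 members (solid lines) and the 11291 promoters with H3K4me3 in both genotypes (dotted lines). At 600 bp downstream H3K4me3 covers 81.6% of members in RXRKO and 89.5% in WT, while the dotted lines of both genotypes run together at 82.3% in RXRKO and 81.3% in WT.

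With all peaks counted, the 2 largest differences belonged to replication genes. Mcm3 had 1568 bp in RXRKO and 2120 bp in WT, a log2 ratio of -0.39. Its WT domain reached 580 bp further into the gene, over chr1:20818576-20819155, where the RXRKO list had no peak. Rrm2, the regulated subunit of ribonucleotide reductase, had 1998 bp in RXRKO and 2445 bp in WT. Its segments covered in WT only, of 340 and 284 bp, lay upstream of the start. The one of 340 bp was a weak peak, with a -log10 q of 4.34, below the limit of 5 used as an alternative. All 3 nucleotide supply genes were shorter, and Tyms, thymidylate synthase, had 1377 bp in RXRKO and 1432 bp in WT. Cdc6, which loads the helicase, had 1174 bp in RXRKO and 1353 bp in WT.

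Of the mitosis genes, all 4 checkpoint and anaphase genes were shorter, with a median log2 ratio of -0.11. Bub1b, a checkpoint protein that restrains the anaphase-promoting complex, had 1214 bp in RXRKO and 1414 bp in WT. Ttk had 1463 bp in RXRKO and 1623 bp in WT. Cdc20, the activator of that complex, had 1720 bp in RXRKO and 1842 bp in WT, and Bub1 had 1639 bp in RXRKO and 1655 bp in WT, a difference of a few bases. Among the cyclins and mitotic kinases 6 of 9 were shorter, with Ccnb2 at 1265 bp in RXRKO and 1473 bp in WT. Gins2, a subunit of the GINS helicase cofactor, stood at the median of the list with 1514 bp in RXRKO and 1577 bp in WT.

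The 11 members with a longer domain in RXRKO differed by little. Cdc45, the helicase activator, came first with 2106 bp in RXRKO and 1996 bp in WT, a log2 ratio of 0.07. Mybl2, which activates mitosis genes with the MuvB core, had 1765 bp in RXRKO and 1705 bp in WT. Top2a had 1847 bp in RXRKO and 1801 bp in WT. Mcm6 had 2442 bp in RXRKO and 2383 bp in WT, and Mcm7 2400 bp in RXRKO and 2356 bp in WT. The positive end of the list was therefore much closer to 0 than the negative end.

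**Figure D3:**
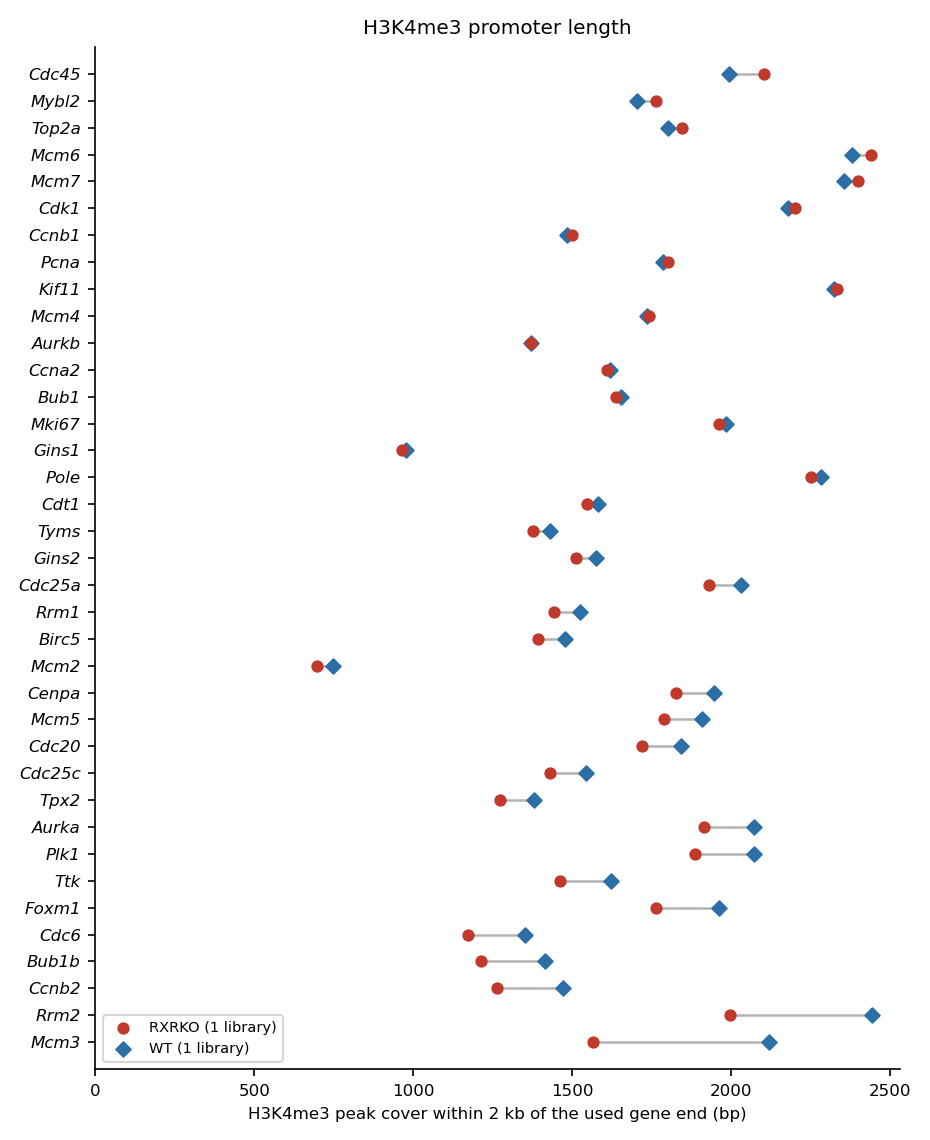
Length of H3K4me3 cover within 2 kb of the gene end, in bp, for the 37 members that could be measured, in RXRKO (circles) and WT (diamonds), 1 library each, ordered by their ratio. From Mcm3 at the bottom (1568 bp in RXRKO, 2120 bp in WT) upward, 26 members are shorter in RXRKO, and the 11 at the top differ by small amounts.

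None of the members passed the test for a difference in H3K4me1. The mark was measured as the bases covered by peaks over the gene body and 20 kb on each side, and tested with limma on log2 values over 17760 genes after centring each library. Of the 38 members, 18 were above 0 and 20 below 0 in RXRKO relative to WT, with log2 differences from -0.26 to 0.35. Their median was -0.0063, beside -0.0045 over all genes tested. No member passed an adjusted p of 0.05, higher or lower, as for all genes (0% and 0% called). One member, Bub1, had an unadjusted p under 0.05, against 5.92% of all genes. The replicate 1 libraries carry 1 run tag in their names and the replicate 2 libraries another, which the H3K4me3 and H3K27ac libraries also carry. What was shared within a tag is not stated. The median of the members was 0.02 within the run of replicate 1 and -0.05 within that of replicate 2. Of the 38 members, 15 had the same sign in both, a count that was not made over all genes.

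Bub1 was the member with the most H3K4me1 gained. Its window held 7821 and 8096 bp in the RXRKO libraries, against 5695 and 5803 bp in the WT libraries. The log2 difference was 0.35 with a standard error of 0.094 and an adjusted p of 0.472 by limma. It was 0.41 within the run of replicate 1 and 0.28 within that of replicate 2, the same direction in both. The Bub1 gene lies at chr2:127800197-127831859 on the minus strand and its window holds 3 other genes.

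The extra cover at Bub1 had identifiable places. A segment of 476 bp at chr2:127789781-127790256, beyond the 3′ end of the gene, was covered in both RXRKO libraries and in neither WT library. It was part of a wider RXRKO peak, and a WT replicate 2 peak of 185 bp began at the next base. The segment lay between H3K4me3 peaks found in both genotypes. Within the gene, an element about 14 kb from the start carried H3K4me1 over 1483 and 1876 bp in the RXRKO libraries, against 1432 and 1182 bp in the WT libraries. The same element carried H3K27ac over 1026 bp in RXRKO (chr2:127817119-127818144) and 254 bp in WT. H3K27ac at the promoter covered 1486 bp in RXRKO and 943 bp in WT, reaching further upstream in RXRKO. H3K4me3 at the promoter was nearly equal, as given above.

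The other members with more H3K4me1 in RXRKO differed by about 1 standard error or less. Pole, the catalytic subunit of the leading-strand polymerase, held 11446 and 11436 bp in RXRKO, against 10485 and 9925 bp in WT. Mcm6 held 6600 and 7408 bp in RXRKO, against 6156 and 6360 bp in WT. The log2 differences of Pole and Mcm6 were 0.09 ± 0.093 and 0.08 ± 0.087 (SE, n = 2 each), with adjusted p of 0.998 by limma. Cdc25a, a phosphatase that activates cyclin-dependent kinases, held 4334 and 5383 bp in RXRKO, against 3601 and 4939 bp in WT. Aurkb, the kinase of the chromosomal passenger complex, held 8489 and 9324 bp in RXRKO, against 7661 and 8539 bp in WT. For Cdc25a and Aurkb the groups overlapped and the 2 runs gave opposite signs.

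Ttk had the largest negative difference. Its window held 2014 and 2753 bp in RXRKO, against 2723 and 3027 bp in WT, with overlapping groups, and the log2 difference was -0.26 with a standard error of 0.12 and an adjusted p of 0.866 by limma. A peak about 11 kb upstream of the gene, of 345 and 577 bp, was present in both WT libraries and in neither RXRKO library. Mcm4, a helicase subunit whose start lies beside that of Prkdc, held 1868 and 2096 bp in RXRKO, against 2353 and 2129 bp in WT, the lowest cover of any member. Bub1b held 6156 and 7505 bp in RXRKO, against 6781 and 8139 bp in WT. Cenpa, the histone H3 variant of centromeres, held 4521 and 4300 bp in RXRKO, against 4526 and 4867 bp in WT. Ccnb2 held 3464 and 3643 bp in RXRKO, against 4075 and 3470 bp in WT. Ttk, Mcm4, Bub1b and Ccnb2 were below 0 in both runs, and Cenpa only in the run of replicate 2.

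Mki67, the proliferation marker Ki-67, stood near the median with 5905 and 7134 bp in RXRKO, against 6022 and 6439 bp in WT, and Mcm5 with 4908 and 5626 bp in RXRKO, against 4605 and 5482 bp in WT. By role, 5 of 9 licensing genes, 3 of 5 helicase and fork genes, 5 of 9 cyclins and mitotic kinases, 2 of 4 checkpoint and anaphase genes and 3 of 6 spindle and chromosome genes were above 0. The 3 nucleotide supply genes and both transcription factors were below 0, with differences from -0.12 for Rrm2 to -0.0091 for Foxm1. None of these passed the test.

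**Figure D4:**
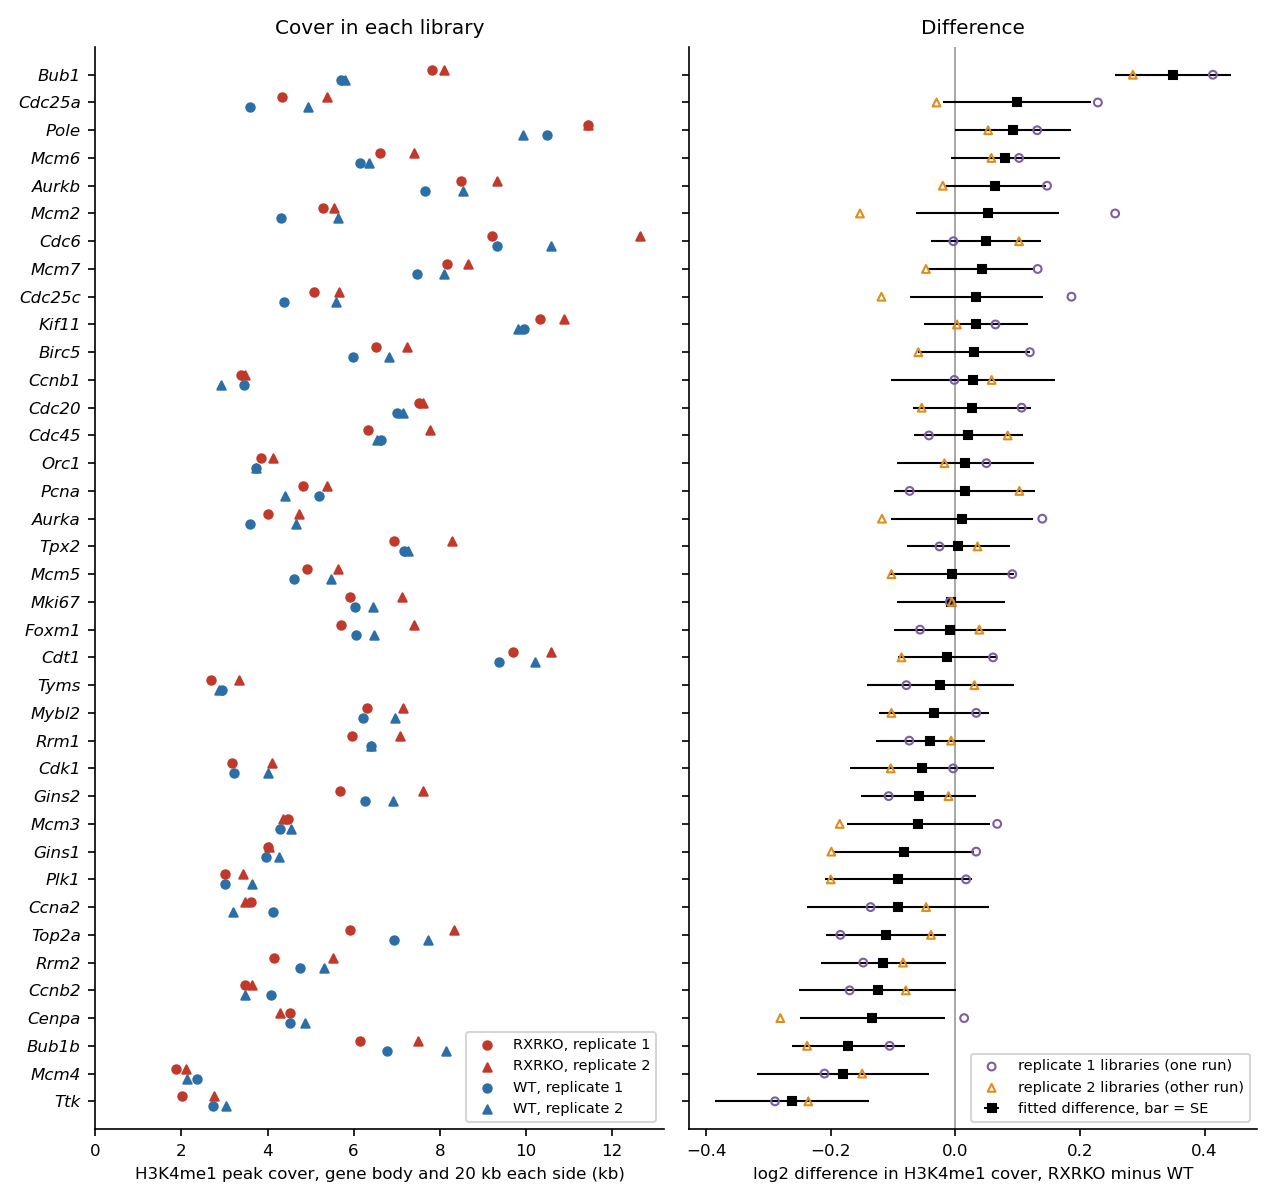
H3K4me1 cover of each member's window in kb in the 2 RXRKO and 2 WT libraries (left, circles for replicate 1 and triangles for replicate 2) and the log2 difference of RXRKO minus WT (right, squares with standard error bars, open symbols for each run alone). Bub1 at the top (0.35) and Ttk at the bottom (-0.26) stand away from the rest, whose differences lie within about 0.2 of 0.

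H3K27ac was also present at the promoters of the members in both genotypes. It was called in 37 of 38 in both (56.2% of all genes), in 0 in RXRKO only (1.32%) and in 0 in WT only (4.74%), and Orc1 was again called only at its promoter table start, with 891 bp in RXRKO and 1047 bp in WT. Within 2 kb of the gene end the median cover was 1063 bp in RXRKO and 1101 bp in WT, shorter than that of H3K4me3. The promoter peaks of Aurkb, Mcm2 and Ccnb2 had the lowest -log10 q in RXRKO, at 3.83, 4.35 and 4.57, against 10.2, 10.4 and 10.3 in WT, with fold enrichments of 3.27, 2.49 and 3.33 in RXRKO and 4.42, 3.01 and 4.45 in WT. With a required -log10 q of at least 5, these 3 of 38 promoters counted as called in WT only, against 1263 of 21631 genes. In RXRKO only there were 0 members, against 303 genes. These peak values also vary with read depth, which is unknown, and are not amounts of the mark. Ccna2, cyclin A2, had the highest enrichments, 9.23 in RXRKO and 11.6 in WT, at a start it shares with Bbs7.

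Compared with the 11291 promoters with H3K4me3 in both genotypes, acetylation of the members covered more upstream of the start and stopped earlier in the gene. H3K27ac was not required of those promoters, whereas every member carried it. The part of promoters without H3K27ac in the higher cover at and before the start was not tested. Within 2 kb upstream, the median cover of the members was 498 bp in RXRKO and 551 bp in WT. For those promoters it was 361 bp in RXRKO and 380 bp in WT. At the start itself acetylation covered 81.6% of the members in RXRKO and 89.5% in WT. Of the 11291 promoters it covered 65.3% in RXRKO and 73.2% in WT. At 450 bp downstream it covered 31.6% of the members in RXRKO and 34.2% in WT, against 48.7% in RXRKO and 54.0% in WT of those promoters. Downstream of the start, 24 members had less H3K27ac in RXRKO and 12 more. Among replication members 13 of 17 had less and 3 more, and among mitosis members 11 of 21 had less and 9 more. The further replication genes listed below did not share the lean of the replication members, with 19 of 36 less and 16 more. Of 38 other genes of mitosis, 22 had less and 14 more. Of the 11291 genes, 48.0% had less and 36.3% more.

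Over the windows of gene body and 20 kb on each side, H3K27ac differed in both directions. Among 37 members with at least 1000 bp on average, 17 were above 0 and 20 below 0 after centring, with a median log2 difference of -0.02 against 0 for all genes. None passed 1.5-fold (0 longer, against 1.24% of all genes, and 0 shorter, against 1.92%), although Pole, Bub1 and Mcm5 came close.

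Pole and Bub1 had the most acetylation gained. Pole held 4543 bp in RXRKO and 2999 bp in WT, a log2 difference of 0.54. The gain included a peak of 657 bp at chr5:110284971-110285627, about 1 kb upstream of the start that Pole shares with Pxmp2, and one of 463 bp within the gene, both called in RXRKO only. Bub1 held 4133 bp in RXRKO and 2764 bp in WT, a log2 difference of 0.52. Mcm6 held 4260 bp in RXRKO and 3546 bp in WT, Aurkb 3095 bp in RXRKO and 2756 bp in WT, and Mcm3 2070 bp in RXRKO and 1848 bp in WT. Bub1, Pole, Mcm6 and Aurkb were among the 5 highest members for both H3K4me1 and H3K27ac, which were measured in different libraries, but the 5 lowest members for each mark had none in common. Whether those libraries came from the same pools of mice is not stated. The H3K4me1 differences of Pole, Mcm6 and Aurkb were about 1 standard error or less, as given above. The overlap between the marks was not tested.

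Mcm5 had the most acetylation lost. It held 1828 bp in RXRKO and 3324 bp in WT, a log2 difference of -0.54. Of the WT cover, 1217 bp was a single intragenic peak at chr8:75118805-75120021 called in WT only. This peak had a fold enrichment of 3.19 and a -log10 q of 5.85, both the lowest among the WT H3K27ac peaks of the window. That element carried H3K4me1 in all 4 libraries, over 1163 and 990 bp in RXRKO and 992 and 1144 bp in WT. Promoter H3K27ac of Mcm5 covered 1149 bp in RXRKO and 1101 bp in WT. Tyms held 951 bp in RXRKO and 1659 bp in WT, and Top2a 2201 bp in RXRKO and 3317 bp in WT. Plk1, the Polo-like kinase, held 1211 bp in RXRKO and 1894 bp in WT. Mcm2 held 1701 bp in RXRKO and 2455 bp in WT.

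For Tyms and Plk1 all the acetylation left in RXRKO was that of the promoter, and every other peak of the window was called in WT only. By role, the 4 checkpoint and anaphase genes were all above 0, with Ttk at 0.0047 and the median at 0.13. In the spindle and chromosome group 5 of 6 were below 0, and both transcription factors were below 0, Foxm1 with 2274 bp in RXRKO and 3159 bp in WT, and Mybl2 with 2247 bp in RXRKO and 2901 bp in WT. Gins2 lay at the median with 2335 bp in RXRKO and 2544 bp in WT.

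**Figure D5:**
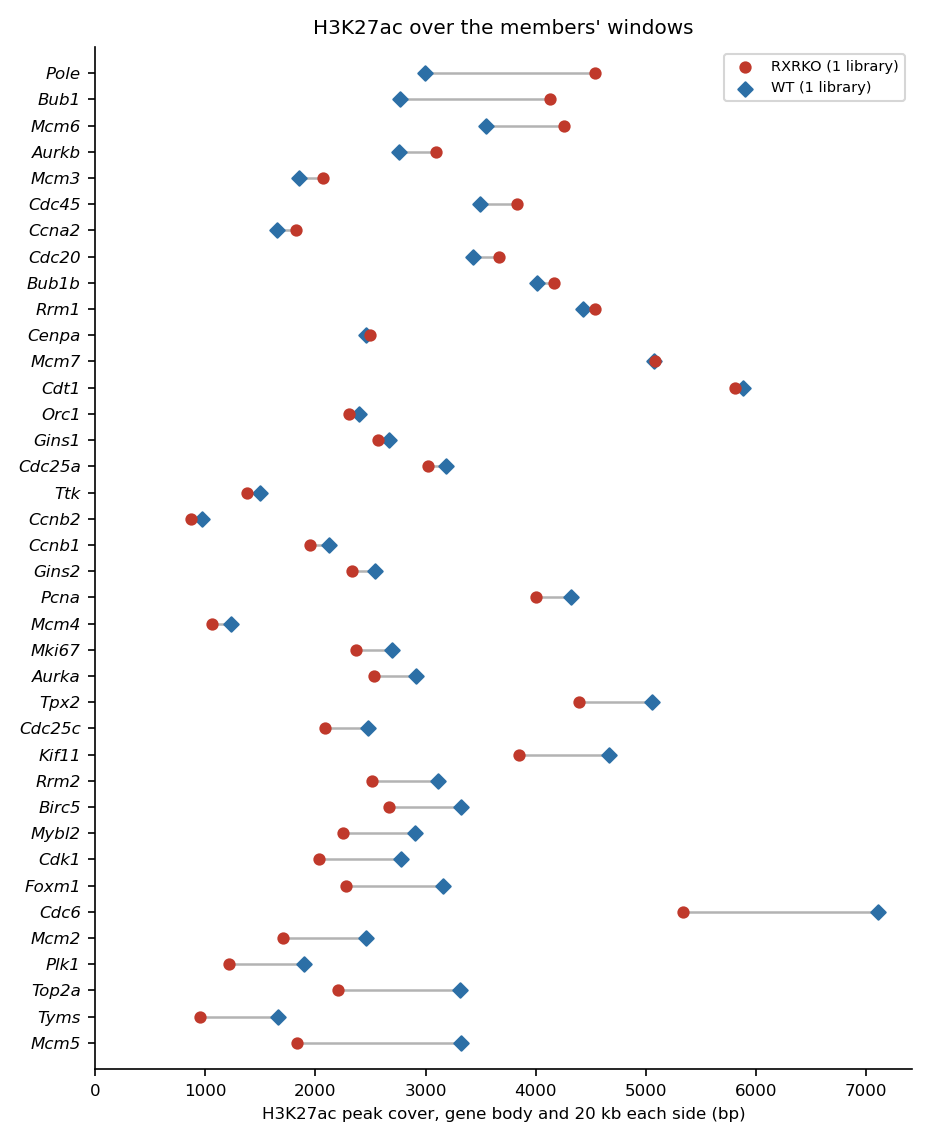
H3K27ac cover of each member's window, gene body and 20 kb on each side, in bp, in RXRKO (circles) and WT (diamonds), 1 library each, ordered by the centred log2 difference. Pole (4543 bp in RXRKO, 2999 bp in WT) and Bub1 stand at the top, and Mcm5 (1828 bp in RXRKO, 3324 bp in WT), Tyms and Top2a at the bottom.

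Away from promoters, the windows held 73 acetylated elements more than 1 kb from any gene end. Of these, 40 were called in both genotypes, 10 in RXRKO only (13.7%, against 14.7% of 67490 distal elements in the genome) and 23 in WT only (31.5%, against 26.1%). Both shares lie near those of the genome. Every element called in both carried H3K4me1 in all 4 H3K4me1 libraries, and so did 8 of the 10 RXRKO-only and 19 of the 23 WT-only elements. The elements in both genotypes were longer, with a median of 853.5 bp, than those called in RXRKO only, at 340.5 bp, or in WT only, at 337 bp.

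The strongest of the RXRKO-only elements lay beyond the 3′ end of Mcm6 at chr1:128323121-128323795, 35910 bp from the start, with a fold enrichment of 4.63. It carried H3K4me1 over its whole 675 bp in all 4 libraries and H3K4me3 over 350 bp in RXRKO and 0 bp in WT. A neighbour at chr1:128323903-128324192 was also called in RXRKO only, while an element of 820 bp at chr1:128314461-128315280 was called in WT only. The Mcm6 window thus held single-genotype elements of both kinds near each other.

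At 1 element near Cdc25a all 3 marks were called in RXRKO and none in WT. At chr9:109902771-109903073, H3K27ac was called over 303 bp in RXRKO only, H3K4me1 covered those 303 bp in both RXRKO libraries and neither WT library, and H3K4me3 covered 216 bp in RXRKO and 0 bp in WT. The H3K4me1 segment present in both RXRKO libraries alone extended over 651 bp, at chr9:109902520-109903170. Near Plk1 the reverse was seen for the trimethyl mark, since the WT-only element at chr7:122171636-122171937 carried H3K4me3 over 0 bp in RXRKO and 302 bp in WT, but H3K4me1 in all 4 libraries. The other leading elements were 2 in WT only near Rrm2 (chr12:24710196-24710578) and Kif11 (chr19:37428532-37428922), 1 in RXRKO only upstream of Mki67 (chr7:135723560-135723937), and 1 each in WT only near Cdc25c (chr18:34769114-34769404) and Tyms (chr5:30035901-30036173). Kif11 encodes the motor that separates spindle poles and Cdc25c the phosphatase that activates Cdk1.

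Other genes of the pathway were taken from lists by function. Of 46 further replication genes, 25 were above 0 and 21 below 0 for H3K4me1, 0 passed an adjusted p of 0.05 by limma, and 1 had an unadjusted p under 0.05. That gene was Clspn, which encodes the checkpoint adaptor claspin, with 11086 and 13556 bp in RXRKO, against 9292 and 10094 bp in WT, and a log2 difference of 0.25 ± 0.074 (SE, n = 2 each, adjusted p = 0.55). Orc4, a subunit of the origin recognition complex, was at 0.22. The lowest were Rfc3 at -0.11, Pola2 at -0.12 and Rfc5 at -0.13. At H3K4me3, 44 of the 46 promoters were called in both genotypes, all but Orc4 and Rfc1, and 29 were shorter and 15 longer in RXRKO. Downstream of the start, 24 of 36 with a table entry were shorter and 9 longer. H3K27ac was called at 42 promoters in both genotypes, at Lig1 in RXRKO only and at Clspn in WT only.

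Of 45 other genes of mitosis, 21 were above 0 and 24 below 0 for H3K4me1 and 0 passed the adjusted test, with 2 at an unadjusted p under 0.05. Spc24 (0.17), Anln (0.16) and Nek2 (0.14) were highest, and Kif20a (-0.13), Nuf2 (-0.37) and Melk (-0.42) lowest. Nuf2, a kinetochore subunit, held 1320 and 1155 bp in RXRKO, against 1821 and 1734 bp in WT. At H3K4me3, 43 of the 45 promoters were called in both genotypes, all but Sgo1 and Sgo2a, and 26 were shorter and 18 longer in RXRKO. Downstream of the start, 27 of 38 with a table entry were shorter and 9 longer, the same direction as in the members. H3K27ac was called at the promoter of Sgo1 in RXRKO only and at that of Melk in WT only.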

How the data were processed

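Peak lists of 8 CUT&RUN libraries were used: H3K4me1 (2 RXRKO, 2 WT), H3K4me3 and H3K27ac (1 each). Per the submitters' processing notes, cutadapt 1.7.1, Bowtie2 2.2.5, MACS3 and the mm10 build were used. The labels name no settings or input controls. The deposited lists hold each peak's position, the authors' score, a fold enrichment (a ratio), and the -log10 p and q values. Read depth is unknown, so no counting interval is given. Peak width and number also vary with depth and background, which the lists do not record.

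Peaks were merged within each library, and covered base pairs were counted by gene with RefSeq positions (GRCm38.p6, the assembly behind mm10). For H3K4me1, log2(bp + 1000) over the gene body and 20 kb on each side was centred on each library's median. It was tested with limma 3.58.1 (R 4.3.3, lmFit and eBayes with trend) over 17760 genes with a mean of at least 1000 bp, with Benjamini-Hochberg adjustment. The log2 scale with a pseudocount understates changes of short cover. H3K27ac was treated alike without a test. H3K4me3 length used the gene end with more H3K4me3, which was the annotated start for 91.6% of 12011 genes with known strand, and log2(bp + 200). Elements and promoters counted as called with 1 bp of overlap.

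The replicate numbers pair the libraries by run tag. Replicate 1 minus replicate 2 correlated between RXRKO and WT with r = 0.212 across 17760 genes, and a fit with the replicate block was run as an alternative. The limma step was checked on simulated data. All 38 members may be named. Full values are given for the 5 highest and 5 lowest per mark, the member nearest the median, promoters called in 1 genotype or neither, the 3 highest and lowest of each pathway list, and the 10 single-genotype elements with the highest -log10 q. The value of 1 gene of the replication list is not reported here. The members and lists were chosen with earlier results of these data known.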

Additional observations from a re-analysis of the deposited data

How the results depend on the processing

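Over 14 alternatives for H3K4me1, 0 members were called in any, the replicate block included. Bub1 came closest, with an adjusted p of 0.0719 by limma without the filter on low values. Its adjusted p by limma was 0.157 with 50 kb on each side and 0.204 with the replicate block. The count over all genes, 0 as reported, was 2 with the replicate block, 2 with a -log10 q of at least 5, 65 without centring and 204 without the filter on low values. Leaving out 1 library gave 0 to 98 genes: 98 without RXRKO replicate 1, 88 without WT replicate 1, 13 without WT replicate 2 and 0 without RXRKO replicate 2. The lone library of an arm was assumed to vary like the other genotype's. The median of the members was 0.053 without centring, where that of all genes was 0.0549, and -0.030 to 0.022 when 1 library was left out. Bub1 and Bub1b kept their direction in all 14, and Ttk in the 13 that could be run for it. The direction turned for Cdc25a (-0.0501 with 5 kb on each side, and -0.0501 to 0.248 when 1 library was left out), Pole (-0.0181 without RXRKO replicate 1, up to 0.202 without RXRKO replicate 2), Mcm6 (-0.0698 with a -log10 q of at least 5), and Cenpa (0.022 with 5 kb, 0.17 with the gene body alone, and -0.272 to 0.0052 when 1 library was left out). It also turned for Aurkb (-0.33 with a fold of at least 4, -0.0402 with the gene body alone), Mcm4 (0.066 with that fold) and Ccnb2 (0.0802 with that q, 0.35 with that fold, and -0.251 to 0.0018 when 1 library was left out). The fold limit and the gene body alone were chosen after seeing the data, and the cause of these turns was not tested.

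Members past 1.5-fold in H3K27ac cover, 0 as reported, numbered 1 with a -log10 q of at least 5 (4.87% of all genes), 1 with equal numbers of peaks (3.32%), 4 with a pseudocount of 200 bp (7.45%), 1 with 5 kb on each side (3.27%) and 1 without centring (3.88%). WT-only distal elements, 23 of 73 as reported, numbered 14 of 56 (25%, against 26.7% in the genome) with that q limit and 17 of 67 (25.4%, against 19.5%) with equal numbers of peaks. The counts of called promoters, of members with shorter H3K4me3 (26) and of members below 0 for H3K27ac stayed within 1.5 times. Read depth and single libraries for H3K4me3 and H3K27ac limit all of these.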

Other observations

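The E2F, RB family and DREAM genes that regulate the promoters described here numbered 20 on a list of their own. All 20 had H3K4me3 at the promoter in both genotypes, and 12 of the domains were shorter and 8 longer in RXRKO. For H3K4me1, 10 were above 0 and 10 below 0, and 0 passed an adjusted p of 0.05 by limma, with 2 at an unadjusted p under 0.05. E2f3 (0.18), an activator E2F, Lin52 (0.14), a MuvB subunit, and Tfdp2 (0.09) were highest. Tfdp1 (-0.12), Lin9 (-0.17) and Mybl1 (-0.51) were lowest. Mybl1, a relative of Mybl2, held 3239 and 2493 bp in RXRKO, against 4594 and 3955 bp in WT. Its log2 difference had a standard error of 0.16 and an adjusted p of 0.604 by limma. The promoter of Tfdp1, a dimer partner of E2F proteins, was called for H3K27ac in WT only, and its window held 0 bp in RXRKO and 1060 bp in WT.

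The rank of the members' promoter peaks within each list was also read, by -log10 q among genes called in both genotypes. For H3K27ac (12155 genes) the median percentile of the members was 46.0 in RXRKO and 62.6 in WT, with 25 members ranked lower in RXRKO and 12 higher. For H3K4me3 (14189 genes) it was 72.6 in RXRKO and 76.8 in WT, with 23 lower and 14 higher. These are ranks within 1 library each, not amounts of a mark, and have no replicate.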
